A study of Homo sapiens with 4 samples.

Results

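The MCM helicase and origin licensing genes described here are MCM2, MCM3, MCM4, MCM5, MCM6 and MCM7, the loading factors CDC6, CDT1 and ORC1, and the licensing inhibitor GMNN. They were taken by gene symbol as a group with a shared role, with earlier results of these data known, and each has 1 transcript cluster among the 22755 clusters that carry a single symbol. The group is 10 of 22393 named genes, and 0 clusters with several symbols name a member. RNA was measured on 4 whole-transcript arrays with 1 array per group: untreated OPM2 cells, OPM2 cells treated with KPT-9274 for 48 h, untreated cells labelled KMS11, and cells labelled KMS11 treated with KPT-9274 for 48 h. OPM2 and KMS11 are names of human myeloma cell lines, and KPT-9274 is a small molecule that blocks 2 enzymes, PAK4 (a kinase) and NAMPT (a step of NAD salvage). No group carries an engineered allele per the labels. The labels used here give neither a dose nor a culture time for the untreated cells, so time in culture and the compound cannot be told apart.

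Licensing is the step in which a cell prepares its replication origins for a single round of copying. The origin recognition complex, of which ORC1 is the subunit that comes and goes with the cell cycle, sits on the DNA and recruits CDC6. CDC6 and CDT1 then load MCM2 to MCM7, a ring-shaped helicase, around the DNA in an inactive form during late mitosis and G1. In S phase the kinases CDC7 and CDK2 turn the loaded ring into a working helicase together with CDC45 and the GINS complex. Geminin, the product of GMNN, binds CDT1 in S and G2 phase and blocks a second loading. Genes of the MCM ring and its loaders are known targets of the E2F transcription factors, which connect their expression to passage from G1 into S phase.

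The promoters of the members are shown because E2F control is the best known feature these genes share. The words searched, and the windows printed whole, were chosen with the array values known. RefSeq windows (assembly GRCh38.p14, 250 bases before to 50 bases after each annotated start, 5′ to 3′ on the gene's strand) were found for 8 of the 10 members, in 11 windows. MCM4 and MCM5 are not shown. Capitals mark each match, on either strand, to 1 of the E2F words TTTGGCGC, TTTGCCGC, TTTCGCGC and TTTCCCGC, and matches that overlap are joined. CDC6 and MCM6 had the lowest changes after treatment, and ORC1 was 1 of 4 members whose change differed in sign between the lines. The whole windows of CDC6 (chr17:40287629-40287928, plus strand), MCM6 (chr2:135876394-135876693, minus strand) and ORC1 (chr1:52404374-52404673, minus strand) follow.
CDC6: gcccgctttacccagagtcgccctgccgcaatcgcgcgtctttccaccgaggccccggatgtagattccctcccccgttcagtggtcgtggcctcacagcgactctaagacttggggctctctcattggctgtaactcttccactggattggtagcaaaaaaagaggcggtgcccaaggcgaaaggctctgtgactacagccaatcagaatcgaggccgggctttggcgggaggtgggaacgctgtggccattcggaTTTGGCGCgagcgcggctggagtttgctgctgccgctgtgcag
MCM6: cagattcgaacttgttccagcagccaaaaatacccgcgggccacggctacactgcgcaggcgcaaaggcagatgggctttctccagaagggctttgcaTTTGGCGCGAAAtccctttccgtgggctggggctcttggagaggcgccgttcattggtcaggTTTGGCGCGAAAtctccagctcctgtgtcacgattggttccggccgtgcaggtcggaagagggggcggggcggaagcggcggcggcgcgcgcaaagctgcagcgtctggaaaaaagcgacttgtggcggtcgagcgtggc
ORC1: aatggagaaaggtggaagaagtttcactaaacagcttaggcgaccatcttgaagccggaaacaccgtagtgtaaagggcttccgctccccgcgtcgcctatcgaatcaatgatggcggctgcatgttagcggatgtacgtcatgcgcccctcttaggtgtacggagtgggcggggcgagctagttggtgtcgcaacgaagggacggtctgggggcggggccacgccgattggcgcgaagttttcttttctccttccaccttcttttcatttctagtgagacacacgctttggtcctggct
The CDC6 word starts 7 bases past the annotated start, and MCM6 has 2 stretches of 12 bases, 152 and 90 bases before its start. Each MCM6 stretch holds 2 overlapping words, 1 on each strand. ORC1 had no match to these words in this window. MCM2, CDT1 and GMNN also differed in sign between the lines, and each of them had a match. A match thus did not separate the members by the sign of their changes.

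Stretches of 60 bases around the matches are given for other members, to show how the words differ between genes. The stretch of MCM2 lies at chr3:127598393-127598452, plus strand. That of MCM3 lies at chr6:52284707-52284766, minus strand, and that of MCM7 at chr7:100101367-100101426, minus strand. The CDT1 stretch lies at chr16:88803734-88803793, plus strand, and the GMNN stretch, from the second of 2 annotated starts, at chr6:24775313-24775372, plus strand.
MCM2: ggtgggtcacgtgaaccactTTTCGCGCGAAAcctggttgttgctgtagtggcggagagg
MCM3: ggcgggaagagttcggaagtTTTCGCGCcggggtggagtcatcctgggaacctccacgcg
MCM7: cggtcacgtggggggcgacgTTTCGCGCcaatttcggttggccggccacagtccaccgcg
CDT1: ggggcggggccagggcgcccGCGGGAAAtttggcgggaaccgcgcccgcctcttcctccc
GMNN: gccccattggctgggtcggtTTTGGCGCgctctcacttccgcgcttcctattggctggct
MCM3 and MCM7 hold 1 more match each, farther upstream. In all, 7 of the 8 members with a window had at least 1 E2F word, against 3.99% of the 27305 genes with a window. Among genes of the origin firing step, 5 of 13 with a window had one, and among genes of the replication fork 9 of 21. Of the G2/M and mitosis genes 2 of 26 did. TTTGAA is the core of the element known as CHR in promoters of mitotic genes. This word was in 18 of 26 G2/M genes, against 18.2% of genes. It was in 0 of 8 members, 1 of 13 origin firing genes and 1 of 21 replication fork genes. With only 8 members, a count of 0 is not far from the share of all genes. CCAAT, the core of the NF-Y site, was in 6 of 8 members and 21 of 26 G2/M genes, against 39.7% of genes. A match is a description of these letters and does not show that a factor binds there.

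**Figure D1:**
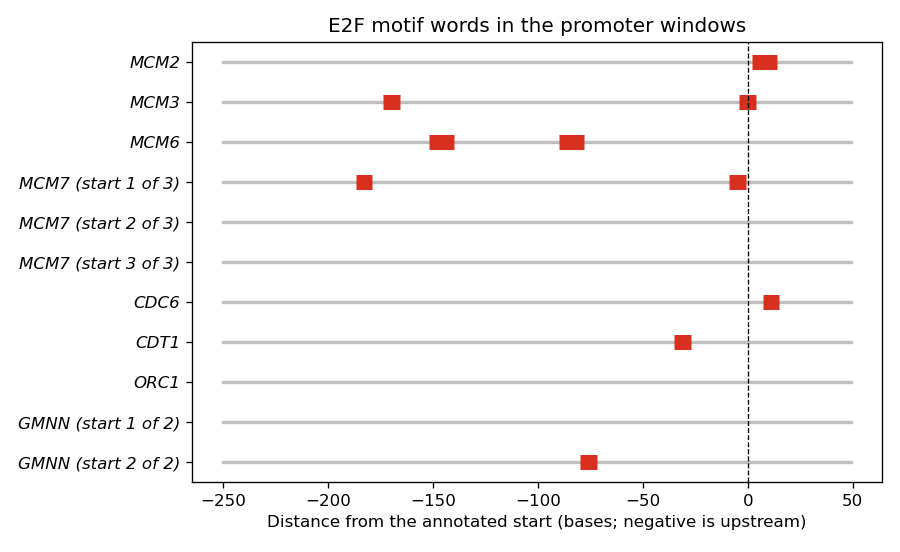
Position of the E2F words (red) in each promoter window (grey line, 250 bases before to 50 after the annotated start), with distance from the start in bases on the horizontal axis and 1 row per annotated start. MCM2, MCM3, MCM7, CDC6 and CDT1 have a word within 35 bases of a start, the words of MCM6 and GMNN lie farther upstream, and the ORC1 row holds none.

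As a check of the arrays as a whole, the median log2 signal of all clusters lay between 5.68 and 6.07. Background was taken as the 95th percentile of 366 olfactory receptor genes and was 6.61 on the untreated and 7.39 on the treated OPM2 array, 6.33 on the untreated and 6.48 on the treated KMS11-labelled array. Of 10 plasma cell markers 9 and 7 lay above it on the untreated and treated OPM2 arrays and 4 on each KMS11-labelled array. On both KMS11-labelled arrays IRF4, XBP1, JCHAIN and MZB1 were above background, and PRDM1, TNFRSF17, POU2AF1, SDC1, CD38 and SLAMF7 were under it. IRF4 and MZB1 lay close to background there, at 6.75 and 6.66 untreated and 6.59 and 6.68 treated. In OPM2 IRF4 read 14.26 untreated and 11.88 treated, and MZB1 9.02 and 8.20. SDC1, CD38 and SLAMF7 were also under background on the treated OPM2 array. The KMS11-labelled arrays also carried erythroid and myeloid genes, for instance GATA1 at 15.90 on the untreated array against 5.24 in OPM2. These arrays are therefore called KMS11-labelled, and nothing below rests on their being myeloma cells. The treated arrays read the compound's target PAK4 at 6.97 in OPM2 and 7.10 in the KMS11-labelled cells (6.94 and 6.88 untreated), the first of these under background, and NAMPT at 10.75 and 9.05 (10.02 and 7.71 untreated). All 10 members read above background on all 4 arrays. The smallest margin was 0.47, for CDT1 on the treated OPM2 array.

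The main comparison asks how the members' transcripts differed after KPT-9274. In OPM2 all 10 members read lower on the treated array, with a median change in log2 signal of -0.74 against 0.03 over the 16790 genes tested. In the KMS11-labelled cells 6 of 10 read lower and 4 higher, with a median of -0.26 against 0.04. Both lines shared a lower reading of CDC6, MCM6, MCM4, MCM5, MCM3 and MCM7, while MCM2, CDT1, ORC1 and GMNN were lower in OPM2 and higher in the KMS11-labelled cells. Among all genes tested 47.5% were lower in OPM2, 44.4% in the KMS11-labelled cells, 27.9% in both and 19.2% in OPM2 alone with a higher KMS11-labelled reading. Each line contributes a single pair of arrays, so the lines were the only replicates. The labels do not mention separate cultures, and p-values here measure the spread between these arrays alone, which may be technical. In bulk RNA, fewer cells in a phase of the cycle and less RNA per cell cannot be told apart.

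**Figure D2:**
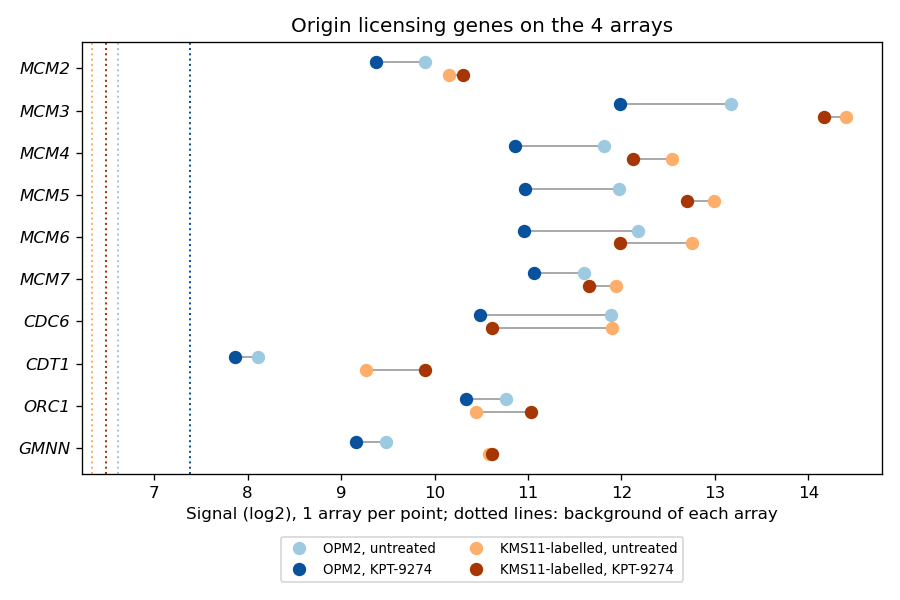
Log2 signal of each member on the 4 arrays, 1 point per array, with a grey line joining the untreated and treated array of a line and dotted lines at each array's background. Every dark blue point (treated OPM2) lies left of its light blue partner, while the dark orange points (treated KMS11-labelled) lie to the right of theirs for MCM2, CDT1, ORC1 and GMNN.

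Within the helicase ring MCM6 had the lowest change in both lines. It read 12.18 untreated and 10.96 treated in OPM2, and 12.76 and 11.98 in the KMS11-labelled cells. Both treated arrays thus lay below their own untreated array, by 2.33-fold and 1.72-fold, though the treated KMS11-labelled reading was above the treated OPM2 one. The mean change of MCM6 was -1.0 ± 0.31 (SD, n = 2 lines), with a limma 95% interval of -1.59 to -0.41 and an adjusted p of 0.328. Of the genes tested, 2.82% had a lower change than MCM6 in OPM2 and 7.41% in the KMS11-labelled cells.

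MCM3, MCM4 and MCM5 stood next to MCM6 in OPM2 and moved less in the KMS11-labelled cells. MCM3, which contacts ORC and CDC6 during loading in budding yeast, read 13.17 untreated and 11.99 treated in OPM2, and 14.40 and 14.17 in the KMS11-labelled cells. MCM4, one of the subunits of the catalytic core of the ring, read 11.81 and 10.86 in OPM2, and 12.54 and 12.12 in the KMS11-labelled cells. MCM5, whose contact with MCM2 is the gate through which DNA enters, read 11.97 and 10.97 in OPM2, and 12.99 and 12.70 in the KMS11-labelled cells. The changes were -1.18 and -0.23 for MCM3, -0.95 and -0.42 for MCM4 and -1.0 and -0.29 for MCM5, in OPM2 and in the KMS11-labelled cells. In each of these genes both KMS11-labelled arrays read above both OPM2 arrays, and within each line the treated array was the lower one. The adjusted p of the treatment was 0.442 for MCM3, 0.370 for MCM4 and 0.422 for MCM5.

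In OPM2 MCM7 and MCM2 had the smallest changes of the ring, while in the KMS11-labelled cells MCM2 and MCM3 had them. MCM7 read 11.60 untreated and 11.07 treated in OPM2, and 11.94 and 11.65 in the KMS11-labelled cells. MCM2, which also carries histones at the fork, read 9.90 and 9.37 in OPM2, and 10.15 and 10.31 in the KMS11-labelled cells. Neither differed 2-fold in either line, with the same change of -0.53 in OPM2 and changes of -0.29 for MCM7 and 0.16 for MCM2 in the KMS11-labelled cells. MCM2 was the only ring subunit whose sign differed between the lines. The subunits of one ring thus covered -1.22 to -0.53 in OPM2 and -0.78 to 0.16 in the KMS11-labelled cells, with medians of -0.98 and -0.29.

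Of the loaders, CDC6 differed most and CDT1 and ORC1 split by line. CDC6, the ATPase that brings the ring to the origin, read 11.89 untreated and 10.49 treated in OPM2, and 11.90 and 10.62 in the KMS11-labelled cells. The readings of the lines differed by at most 0.13 at matched treatment, and both treated arrays lay below both untreated arrays. CDC6 was 2.64-fold lower in OPM2 and 2.43-fold lower in the KMS11-labelled cells, a mean change of -1.34 ± 0.085 (SD, n = 2 lines) with a limma 95% interval of -1.84 to -0.84. Its adjusted p of 0.325 was the smallest over all genes, shared with others, and 0.105 to 1 under the alternatives. Of the genes tested, 1.53% had a lower change in OPM2 and 2.33% in the KMS11-labelled cells.

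CDT1, the partner of CDC6 in loading, read 8.11 untreated and 7.86 treated in OPM2, and 9.27 and 9.90 in the KMS11-labelled cells. ORC1 read 10.77 and 10.34 in OPM2, and 10.44 and 11.03 in the KMS11-labelled cells. Both were lower in OPM2, by -0.25 and -0.43, and higher in the KMS11-labelled cells, by 0.63 and 0.59. Changes that high were uncommon in the KMS11-labelled cells, where 94.1% of genes tested had a lower change than CDT1 and 93.2% a lower change than ORC1. The means over both lines were 0.19 ± 0.62 for CDT1 and 0.080 ± 0.72 for ORC1 (SD, n = 2 lines), smaller than their spread, and both means turned to -0.01 and -0.12 when each array was centred on its median. Adjusted p was 0.775 and 0.912. GMNN, the inhibitor of CDT1, read 9.48 and 9.16 in OPM2 and 10.58 and 10.61 in the KMS11-labelled cells, changes of -0.32 and 0.03 with an adjusted p of 0.748. The GMNN change in the KMS11-labelled cells was -0.05 after median centring.

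No member passed limma's test over both lines at an adjusted p below 0.05 (0 of 10), nor did any gene (0% lower and 0% higher of those tested). At an unadjusted p below 0.05 limma had 3 members, CDC6, MCM6 and MCM4, all lower, against 8.65% of all genes that were lower at that level. The interval of the mean change lay wholly below 0 for these genes, and it included 0 for the other members. At least 2-fold lower readings were counted for 4 members in OPM2 (CDC6, MCM6, MCM3 and MCM5) and for 1 in the KMS11-labelled cells (CDC6), against 5.52% and 4.43% of all genes. MCM5 lay at the threshold. The OPM2 count was 3 without MCM5 under quantile normalization and under cyclic loess (6.55% and 6.53% of all genes), and 5 with MCM4 added under median centring (12.4%). CDC6 was the only member at least 2-fold lower in both lines, as were 1.19% of all genes. Quantile normalization brought the members' median in the KMS11-labelled cells to -0.10, against 0.05 for all genes, and the OPM2 median to -0.73 against -0.17.

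**Figure D3:**
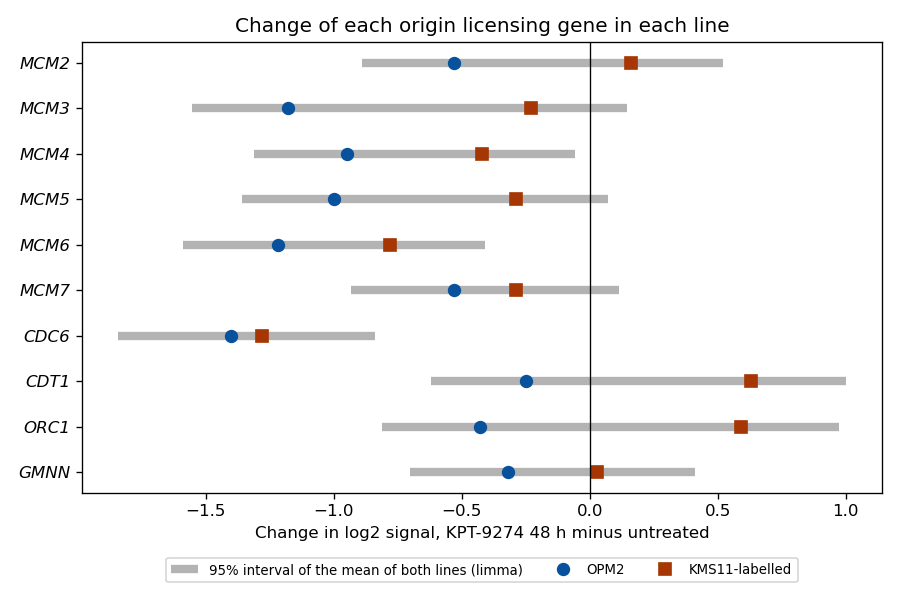
Change in log2 signal (KPT-9274 for 48 h minus untreated) of each member in OPM2 (blue circles) and in the KMS11-labelled cells (orange squares), with the limma 95% interval of the mean of both lines as a grey bar. The bars of MCM4, MCM6 and CDC6 lie left of 0, and the lines lie closest together for CDC6, at -1.40 and -1.28.

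Every member had a higher change in the KMS11-labelled cells than in OPM2 (10 of 10), as had 48.9% of all genes tested. This was not particular to the members. It also held for 17 of 19 origin firing genes, 21 of 24 replication fork genes and 26 of 29 G2/M and mitosis genes. Among the other ORC subunits it held for 3 of 5 genes, and among the MCM relatives for 3 of 5. The gap between the 2 changes was 0.12 for CDC6, 0.24 for MCM7, 0.35 for GMNN, 0.44 for MCM6 and 0.53 for MCM4. It was 0.69 for MCM2, 0.71 for MCM5, 0.88 for CDT1, 0.95 for MCM3 and 1.02 for ORC1. The members' count stayed at 10 under quantile normalization, median centring and cyclic loess, where the share of all genes was 70.6%, 69.8% and 66.4%. The gap itself could not be tested, because it takes up the only residual degree of freedom of the fit. Across members the changes in the 2 lines gave Pearson's r of 0.86 and Spearman's rho of 0.85 over the 10 members, a description of genes read on the same 4 arrays. Over MCM2 to MCM7 alone they were 0.67 and 0.49 (6 genes), and over all genes tested 0.36 and 0.34.

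The comparison of the lines asks how the members' levels differed between KMS11-labelled and OPM2 cells over untreated and treated arrays together. MCM3, MCM5, CDT1 and GMNN were higher in the KMS11-labelled cells past limma's test, 4 of 10 members, against 10.8% of all genes higher there and 8.28% higher in OPM2, where 0 members were. MCM3 was higher by 1.71 log2 units, 3.26-fold (SE 0.30, adjusted p = 0.0376), and CDT1 by 1.60, 3.03-fold (SE 0.29, adjusted p = 0.0387). MCM5 was higher by 1.38, 2.59-fold (SE 0.25, adjusted p = 0.0405), and GMNN by 1.28, 2.42-fold (SE 0.20, adjusted p = 0.0299). For each of these genes both KMS11-labelled arrays read above both OPM2 arrays. The untreated and treated pairs differed by 1.23 and 2.18 for MCM3 and by 1.16 and 2.04 for CDT1. For MCM5 the pairs gave 1.02 and 1.73, and for GMNN 1.1 and 1.45. The calls of MCM3, CDT1 and MCM5 were lost without a filter on dim genes (adjusted p = 0.0561, 0.0568 and 0.0570), and GMNN kept its call under all alternatives tried, at 0.00914 to 0.0388.

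MCM4 was higher by 0.995 (adjusted p = 0.0577) and MCM6 by 0.80 (adjusted p = 0.0776) without passing. MCM4 passed under quantile normalization, median centring and cyclic loess and with the lowest 50% of genes left out, at 0.0249 to 0.0388, and MCM6 under quantile normalization at 0.0482. The differences of MCM2 (0.60, adjusted p = 0.183) and MCM7 (0.46, adjusted p = 0.172) did not pass. CDC6 and ORC1 had the smallest differences, 0.07 with an interval of -0.43 to 0.57 and 0.18 with an interval of -0.71 to 1.07. In the untreated pair ORC1 was lower in the KMS11-labelled cells, by -0.33, and in the treated pair higher, by 0.69.

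Markers of cell identity moved with this comparison. The signals of the plasma cell markers, summed on the linear scale and then put in log2, came to 17.33 and 17.02 on the OPM2 arrays, untreated before treated, and to 12.11 and 11.79 on the KMS11-labelled arrays. JCHAIN, the joining chain of secreted antibodies, made up 79.0% and 90.7% of that sum on the OPM2 arrays. Of 7 measured erythroid markers 1 and 0 lay above background in OPM2 and 5 on each KMS11-labelled array, with sums of 8.79 and 8.89 against 16.36 and 16.54, of which GATA1 made up 73.0% and 60.2% on the KMS11-labelled arrays. The erythroid markers HBZ and EPOR were under background on all arrays. Of 10 myeloid markers 2 and 1 lay above background in OPM2 and 5 on each KMS11-labelled array. Their sums were 9.24 and 9.36 against 16.51 and 16.20, of which MS4A3 made up 77.2% and 66.1% on the KMS11-labelled arrays. MPO, CSF1R, CD14, AZU1 and ELANE were under background on all arrays. CEBPA did not separate the lines, at 7.49 and 7.12 in OPM2 and 7.08 and 7.11 on the KMS11-labelled arrays. The part of these markers in the members' differences was not tested.

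**Figure D4:**
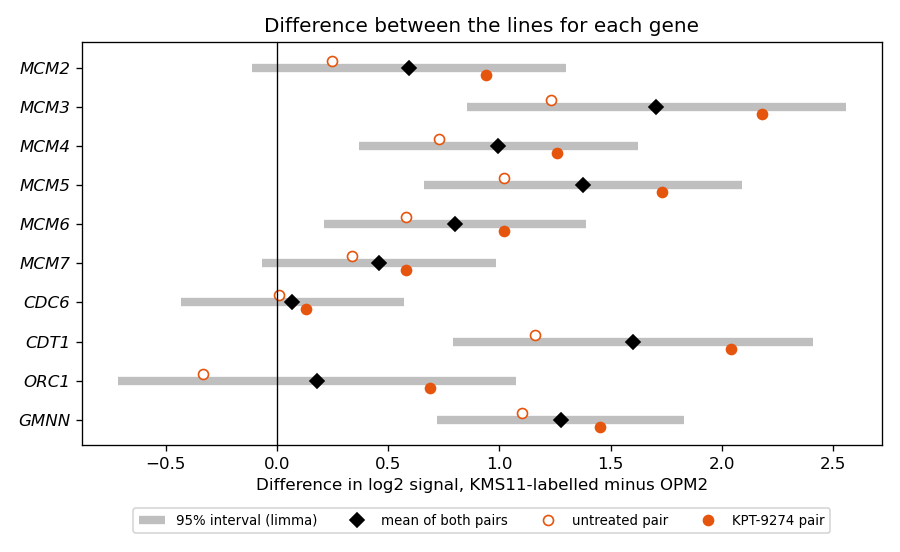
Difference in log2 signal between KMS11-labelled and OPM2 arrays for each member, for the untreated pair (open circles), the treated pair (filled circles) and their mean (diamonds), with the limma 95% interval as a grey bar. For every member the filled circle lies right of the open one, and the intervals of MCM2, MCM7, CDC6 and ORC1 cross 0.

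The other genes of the licensing pathway were read from lists chosen by their role. Among all genes tested 27.9% were lower in both lines, 34.9% higher in both and 19.2% lower in OPM2 but higher in the KMS11-labelled cells. Among the other subunits of the origin recognition complex, 2 of 5 measured genes were lower in both lines and 3 lower in OPM2 alone, with medians of -0.60 and 0.19. ORC6 had -0.64 and -0.84 and ORC2 -0.15 and -0.23, and neither passed (adjusted p = 0.343 and 0.656). Of relatives and partners of the ring, MCM8, a helicase that acts in recombination with MCM9, had changes of -1.37 and -0.95 (adjusted p = 0.325) and MCM9 had -0.44 and -0.85. MCM3AP had -0.42 and -0.50, and MCMBP, which binds MCM subunits, had 0.03 and 0.17. In this list of 5 tested genes 3 were lower in both lines and 1 was higher.

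In the firing step, which turns the loaded ring into a helicase, 14 of 19 genes read lower in each line and 3 higher in each. The shares of all genes were 27.9% and 34.9%, and the medians of the list were -0.88 and -0.45. Cyclin E2 (CCNE2) had -2.35 and -1.36 and cyclin E1 (CCNE1), like it an activator of CDK2, -1.54 and -1.0. The kinase CDC7 had -1.32 and -0.85, while its activator DBF4 had 0.09 and 0.75. The GINS subunit GINS4 was lower by at least 0.57 in OPM2, where its treated reading of 7.08 was under background, and by 0.84 in the KMS11-labelled cells. No gene of the list passed, with adjusted p of 0.325 for CCNE2, CCNE1, CDC7 and GINS4. CCNA2, the cyclin of S and G2 phase, had 0.15 and 1.53.

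Genes that control licensing were mixed, with 4 of 11 tested lower in both lines and 5 higher, and medians of -0.03 and 0.48. Both counts lay near the shares of all genes, 27.9% lower in both lines and 34.9% higher in both. SKP2, a ubiquitin ligase subunit that targets CDT1, had -1.80 and -0.61, and CUL4A, the scaffold of another CDT1 ligase, -0.60 and -0.48. KAT7, the acetyltransferase that supports MCM loading, had 0.90 and 1.16, and the deubiquitinase USP7 -0.56 and -1.41. The anaphase-promoting complex activator CDC20 had -0.03 and 1.87, and CCNF, which targets CDC6 for degradation, 0.37 and 1.33. DBF4, CCNA2, CDC20 and CCNF were named after their values were seen.

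The list of E2F and pocket protein genes also held TFDP1, TFDP2, LIN9, LIN37, LIN52, LIN54, MYBL2 and FOXM1. Of its 19 genes, 9 read lower in each line and 3 higher in each. The lower ones were E2F, TFDP and pocket protein genes, and the higher ones were LIN37, LIN52 and FOXM1. The medians of the whole list were -0.64 and -0.22, and 27.9% of all genes were lower in both lines. Under median centring 11 genes of this list were lower in both, against 45.5% of all genes. E2F2 had -1.79 and -0.61, the repressors E2F4 and E2F6 -0.90 and -0.60 and -0.58 and -0.67, and the pocket protein RBL1 -1.10 and -1.38, with adjusted p of 0.325 to 0.358. Replication fork genes had medians of -0.75 and -0.32, with 19 of 24 lower in both lines and 2 higher. Under quantile normalization 15 were lower in both, against 32.9% of all genes. The members' medians, -0.74 and -0.26, lay close to the fork medians. G2/M and mitosis genes stood on the other side, with medians of 0.73 and 1.34, 26 of 29 higher in both lines and 0 lower, against 34.9% of all genes higher in both. Under median centring 23 were higher in both lines and 1 lower, against 13.3% of all genes higher. The log2 of their summed signal, of which no gene made up more than 18.9% on any array, went from 17.61 to 18.21 in OPM2 and from 17.00 to 18.26 in the KMS11-labelled cells. Its part in the members' changes was not tested. No gene of these lists passed limma's test.

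**Figure D5:**
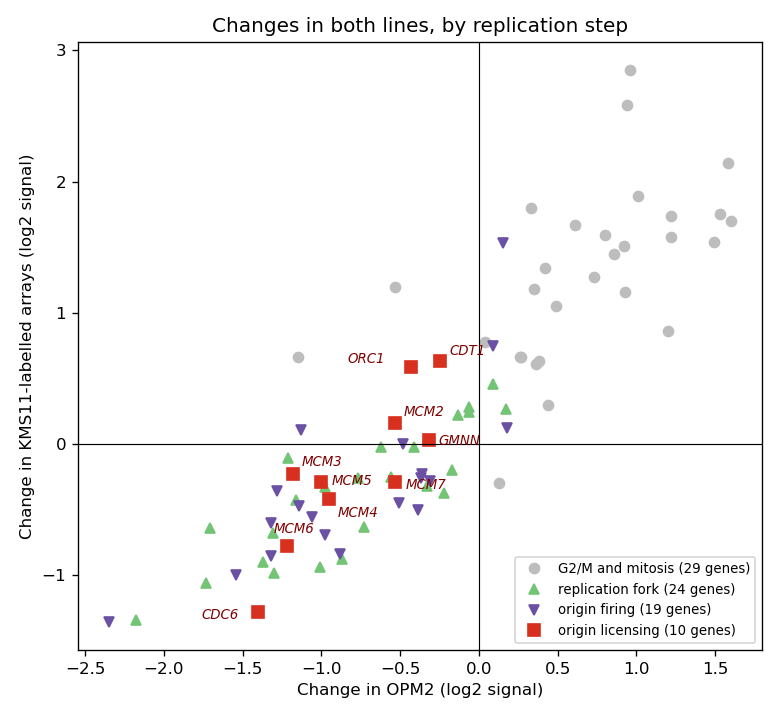
Change in log2 signal in OPM2 (horizontal) against the KMS11-labelled cells (vertical), 1 point per gene, for the 10 origin licensing genes (red squares, named), 19 origin firing genes, 24 replication fork genes and 29 G2/M and mitosis genes. CDC6 and MCM6 lie among the lower firing and fork genes, CDT1 and ORC1 lie in the upper left quadrant, and the G2/M genes lie mostly in the upper right.

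MCM7 hosts the microRNA genes MIR25, MIR93 and MIR106B within its span on the same strand. Whether their signal follows that of MCM7 was not tested. Their main mature forms are shown because MIR93 and MIR106B share a seed (bases 2 to 8, in capitals) and MIR25 has another (RefSeq, GRCh38.p14, chr7, minus strand).
hsa-miR-25-3p: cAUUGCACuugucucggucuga
hsa-miR-93-5p: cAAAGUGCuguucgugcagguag
hsa-miR-106b-5p: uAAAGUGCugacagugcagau
The array has a cluster for each of these genes, which does not tell precursor from mature RNA. The MIR25 cluster read 7.09 untreated and 6.45 treated in OPM2, and 7.05 and 5.61 in the KMS11-labelled cells. It was above background on the untreated arrays and under it on the treated ones, so it was lower by at least 0.57 in the KMS11-labelled cells, and in OPM2 the raised background leaves its change unread. MIR93 and MIR106B were under background on all 4 arrays.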

How the data were processed

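Total RNA was labelled as sense-strand DNA and hybridised to whole-transcript arrays, 1 per group. The deposited table gives log2 signal per transcript cluster. Per the submitters' processing notes the authors used the Transcriptome Analysis Console, and how signals were summarized and scaled, and on which build, is not given in the sources used here. That the scale is log2 was judged from the values, which run from 2.49 to 19.74. The number of arrays limits the precision.

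Clusters were named from the platform annotation, with symbols updated through RefSeq (GRCh38.p14, names only): 22755 of 65528 had 1 symbol, 1389 several and 41384 none here. The brightest cluster stood for each of 345 genes with several. Of 22393 genes the dimmest 25% by mean were left out. A model with line and agent was fitted to the 16790 others (R 4.3.3, limma 3.58.1, lmFit and eBayes, 1 residual and 2.79 prior degrees of freedom), two-sided, with Benjamini-Hochberg adjustment over all genes at 0.05. The fit was tested on simulated data with the same change planted in both lines. That test does not cover genes whose change differs between the lines. All columns of values belong to labelled samples.

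The members and lists were chosen with earlier results of these data known. From each list up to 4 genes were named, by the smaller of both lines' changes where these shared a sign and the gene was above background on at least 1 array of each line. PAK4, NAMPT and the MCM7 microRNA genes were also named. So were genes starting within 1000 bases of a member with a promoter window, on the other strand, and the 5 genes nearest in pattern. The background measure, the E2F, CHR and CCAAT words, and genes cited as identity checks were chosen after the data were seen. Alternatives were quantile normalization, median centring, cyclic loess, no filter or one at 50%, averaging the clusters of a gene, a trended and robust prior, and no line block.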

Additional observations from a re-analysis of the deposited data

Results flagged for a closer look

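MCM2, CDT1, ORC1 and GMNN were lower on the treated OPM2 array and higher on the treated KMS11-labelled array. The KMS11-labelled change exceeded the OPM2 change by 1.02 for ORC1, 0.88 for CDT1, 0.69 for MCM2 and 0.35 for GMNN. Each line gives 1 pair of arrays, and the difference was not tested. Of all genes tested, 19.2% had that combination of signs. GMNN lost it under median centring, where its KMS11-labelled change was -0.05.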

How the results depend on the processing

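Other filters, priors, cluster averaging and dropping the block leave each member's treatment change as it was, so only the scalings bear on its direction. Over 30 treatment changes recomputed under another scaling 28 kept it. Under median centring the mean change of CDT1 was -0.01 and that of ORC1 -0.12, and the KMS11-labelled change of GMNN was -0.05. Centring lowered every change by 0.32 in OPM2 and by 0.08 in the KMS11-labelled cells, the shift in array median, and brought the median of all genes in OPM2 from 0.03 to -0.29. That median was -0.17 under quantile normalization and -0.18 under cyclic loess. Quantile normalization called 2 genes higher and 3 lower over all genes, against 0 and 0, none of them a member. The members' median over both lines was -0.53 and lay between -0.73 and -0.46 under other scalings, and was -0.74 in OPM2 alone and -0.26 in the KMS11-labelled arrays alone. Members lower in both lines numbered 6, against 27.9% of all genes, and 7 under median centring, against 45.5%. The share of all genes was 32.9% under quantile normalization, 38.8% under cyclic loess, 38.5% with the lowest 50% left out and 21.7% with no filter, each with 6 members. In OPM2 alone 10 were lower, and in the KMS11-labelled arrays alone 6. Of 28 recomputed line differences of the 4 members called, 25 kept the call and 3 lost it (MCM3, MCM5 and CDT1 without a filter). Of 42 of the other members, 5 passed (MCM4 and MCM6); the cause was not tested. Without the line block no gene was called. No paired analysis by replicate number was possible because the labels give none. Dim genes read against a raised background on the treated OPM2 array, which limits CDT1 most among the members.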

Other observations

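Of the genes measured here, 3 start within 1000 bases of a member with a promoter window, on the opposite strand. MCM4 and MCM5 had no window, so their neighbours were not searched. TPRA1, whose start lies 180 bases from that of MCM2, had changes of -0.32 in OPM2 and -0.05 in the KMS11-labelled cells. AP4M1, 40 bases from a start of MCM7, had -0.09 and 0.29, and the splicing factor PRPF38A, 179 bases from ORC1, had -0.06 and 0.03 where ORC1 had -0.43 and 0.59. Limma gave adjusted p of 0.678, 0.827 and 0.970, and the difference between a member and its neighbour was not tested.

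The genes outside the group whose 4 values, each less the gene's mean, lay nearest to the members' mean pattern were HSD17B12, MAP3K20, PARN, SRSF8 and HNRNPA3P1, at Euclidean distances of 0.047 to 0.10 over 4 arrays. HSD17B12, an enzyme of fatty acid elongation, had changes of -0.77 and -0.22 and a line difference of 0.87. The members themselves lay at 0.22 (MCM4) to 1.22 (CDC6) from that mean.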
